A study of Homo sapiens with 24 samples.

Results

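The loss of DNMT1 on top of the loss of UHRF1 was examined by RNA-seq in HCT116, a human colorectal carcinoma line, by comparing all genes of 3 UHRF1-AID/DNMT1-AID libraries with those of 3 UHRF1-AID libraries after 4 days of auxin. These 6 libraries are part of 24, which hold the compound UHRF1-AID/DNMT1-AID line, each single degron line (UHRF1-AID or DNMT1-AID) and WT cells at day 0 and day 4, with 3 libraries per group. The libraries were chosen by their labels, and the 58735 Ensembl genes in the count tables were all considered. All 4 lines carry OsTIR1, the plant receptor that lets auxin target a tagged protein, under a promoter induced by doxycycline. In UHRF1-AID cells the auxin-inducible degron (AID) with a green fluorescent protein is fused to the C-terminus of UHRF1, and in the compound line the degron with a red fluorescent protein is also fused to the N-terminus of DNMT1, in cells that already carried the UHRF1 tag. DNMT1-AID cells carry only the second tag and WT cells neither. Cells of every line, WT included, were given doxycycline with auxinole, a blocker of the receptor, for 1 day and then doxycycline with auxin up to day 4, while day 0 libraries precede auxin. Per the methods of the study, replicates of each degron line come from 3 separate clones, so the spread between libraries includes that between clones, but the labels do not tie a library to a clone.

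DNA methylation at CpG sites is copied onto the new strand after replication by the methyltransferase DNMT1, and UHRF1, which binds hemimethylated CpG sites and ubiquitinates histone H3, brings DNMT1 to them. Promoter methylation keeps germline genes, imprinted alleles and, in colorectal cancer, many further genes silent in somatic cells. When methylation is lost, germline genes known as cancer/testis genes, many of them on the X chromosome, can be transcribed, and double-stranded RNA from repeats can switch on interferon-stimulated genes. The comparison asks what transcripts change when DNMT1 is removed from cells that have already lost UHRF1.

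Read counts on genes were between 15936193 and 16645939 in the compound libraries and between 17776768 and 19991383 in the UHRF1-AID libraries. The table headers name 2 alignment folders, and the UHRF1-AID day 4 libraries share one with all day 0 libraries while the compound libraries share the other with the WT and DNMT1-AID day 4 libraries. Only libraries of the second folder hold counts on the ERCC spike-in sequences, 1.65%, 1.51% and 1.48% in the 3 compound libraries and 0 in the UHRF1-AID libraries. Line and folder therefore cannot be told apart in the comparison. CEACAM6, a marker of colon epithelium, was at 0 in all 6 libraries, and CEACAM5 was at 0 in the UHRF1-AID libraries. The summed level of the 14 colon markers was between 5563 and 6840.2 CPM (TMM-normalized counts relative to library size) in UHRF1-AID and between 5184 and 5933.5 CPM in compound libraries. The 25 markers of other cell types summed to between 10.7 and 18.9 CPM in UHRF1-AID and between 25.6 and 29.9 CPM in compound libraries, with MS4A1, CD68 and HBB at 0 in both.

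The transcripts of the targeted genes come first. DNMT1 (chr19:10133345-10231286, ENSG00000130816) stood at 36.6, 26.7 and 63.3 CPM in the UHRF1-AID libraries and at 13.6, 14.6 and 9.49 CPM in the compound libraries, so the groups did not overlap. Its log2 fold change, compound minus UHRF1-AID, was -1.77 (SE 0.32, adjusted p = 0.0121, edgeR quasi-likelihood test with Benjamini-Hochberg adjustment). At day 0, before auxin, DNMT1 stood at 173, 177 and 192 CPM in UHRF1-AID and at 77.7, 78.4 and 40.4 CPM in compound cells, a log2 fold change of -1.47 (adjusted p = 0.0797). UHRF1 stood at 39.4, 34.7 and 80.7 CPM in UHRF1-AID and at 27.3, 52.1 and 57.9 CPM in compound libraries at day 4, and these overlap (log2 fold change -0.19, SE 0.40, adjusted p = 0.778). The degron acts on the protein, so these transcript levels do not measure its removal. Without UHRF1-AID replicate 1 or compound replicate 2 the adjusted p of DNMT1 was 0.0514 and 0.0521.

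Promoter sequences are shown for the 4 genes with the smallest p among the leading higher genes that were silent in WT cells and have an entry in the RefSeq promoter table, since promoter methylation is what the removed proteins maintain. Each is the 250 bases upstream of the RefSeq transcription start, read 5′ to 3′ on the strand of the gene (GRCh38.p14), with every CG dinucleotide, the site of methylation, in capitals. PAGE2B (chrX:55074780-55075029, plus strand) and PAGE2 (chrX:55088768-55089017, plus strand) are neighbouring X-linked cancer/testis genes, ELOVL4 (chr6:79947554-79947803, minus strand) elongates very long chain fatty acids, and DAZL (chr3:16605424-16605673, minus strand) is an RNA-binding protein of germ cells.
PAGE2B: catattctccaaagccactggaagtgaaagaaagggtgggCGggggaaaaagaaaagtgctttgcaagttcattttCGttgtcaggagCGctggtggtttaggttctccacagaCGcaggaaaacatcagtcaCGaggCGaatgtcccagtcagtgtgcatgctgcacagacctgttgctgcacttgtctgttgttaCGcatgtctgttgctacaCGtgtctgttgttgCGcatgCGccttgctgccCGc
PAGE2: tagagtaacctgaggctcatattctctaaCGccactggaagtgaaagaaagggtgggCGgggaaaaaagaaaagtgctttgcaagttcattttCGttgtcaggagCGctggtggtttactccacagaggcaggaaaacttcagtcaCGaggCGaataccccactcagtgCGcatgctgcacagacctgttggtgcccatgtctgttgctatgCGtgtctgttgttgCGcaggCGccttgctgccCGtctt
ELOVL4: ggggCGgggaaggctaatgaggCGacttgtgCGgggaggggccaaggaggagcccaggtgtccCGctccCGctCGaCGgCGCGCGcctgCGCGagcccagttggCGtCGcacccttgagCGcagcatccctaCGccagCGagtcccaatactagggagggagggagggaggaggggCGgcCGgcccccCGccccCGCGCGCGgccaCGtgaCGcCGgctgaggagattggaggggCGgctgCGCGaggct
DAZL: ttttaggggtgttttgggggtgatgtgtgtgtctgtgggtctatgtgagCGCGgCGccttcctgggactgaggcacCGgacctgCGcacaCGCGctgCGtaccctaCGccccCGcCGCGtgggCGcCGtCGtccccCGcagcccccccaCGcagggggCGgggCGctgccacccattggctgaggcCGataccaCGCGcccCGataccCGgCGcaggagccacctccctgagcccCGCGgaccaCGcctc
The PAGE2B and PAGE2 windows hold 11 CG dinucleotides each, a number reached by 50.02% of the 27305 RefSeq promoters cut to the same length. ELOVL4 has 30 and DAZL 28, numbers reached by 12.2% and 15.5% of them. With PAGE2 shifted by 13 bases and no gap allowed, 136 of 237 bases (57.4%) of the PAGE2 and PAGE2B windows are the same. The windows share long stretches separated by short insertions or deletions, and a single shift leaves part of these out of register. The share therefore understates how alike the windows are. A match of letters is a description, and methylation of these windows was not measured in the libraries. A comparison of CG content between the called genes and all genes is void, because only 64.5% of the higher and 77.8% of the lower genes have an entry in the promoter table, under the 80% required.

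With DNMT1 also lost, many more genes were higher than lower. Of 14497 genes tested, 609 (4.2%) were higher and 135 (0.931%) lower in the compound line, where a call needs a log2 fold change beyond 1 in either direction and an adjusted p below 0.05. The median log2 fold change was 1.61 over the higher genes, -1.16 over the lower genes and 0.00 over all genes tested. Replicates did not overlap for 3005 genes (20.7%) in the higher and 2573 (17.7%) in the lower direction, and this was so for all 609 higher and 132 of the 135 lower genes. The counts depend on single libraries. Higher and lower genes numbered 404 and 57 without UHRF1-AID replicate 1, 774 and 376 without replicate 2 and 459 and 55 without replicate 3. They numbered 365 and 43, 239 and 18, and 292 and 28 without compound replicates 1, 2 and 3. No gene called with all 6 libraries had the opposite sign in any of these fits.

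**Figure D1:**
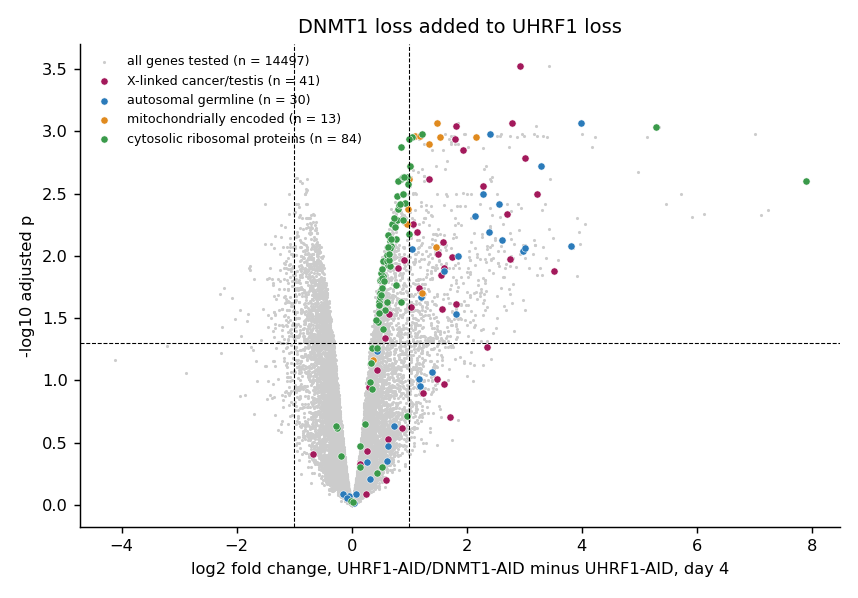
Fitted log2 fold change, compound minus UHRF1-AID at day 4 (x axis), against -log10 of the edgeR adjusted p (y axis) for the 14497 genes tested, with 4 gene lists in colour and dashed lines at the thresholds. X-linked cancer/testis and autosomal germline genes (crimson and blue) spread to the far right, while most of the 84 cytosolic ribosomal protein genes (green) lie between 0 and the fold threshold, with RPL39L and RPL10L far to the right and 4 members below 0, and the 13 mitochondrial genes (orange) all lie right of 0.

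Cancer/testis genes of the X chromosome gained expression beyond what UHRF1 loss alone had given. Of 122 members of the list, 41 passed the filter on low counts and 23 of them (56.1%) were higher, against 4.2% of all genes tested. None was lower (edgeR 0, DESeq2 0, with 33 at an unadjusted p under 0.05 in either direction). The other 81 members were too low in these libraries to be tested. A member too low in UHRF1-AID cells to pass the filter there, such as XAGE1A, could be tested only if it was higher in the compound line. PAGE2B (chrX:55075063-55078909, ENSG00000238269) stood at 2.96, 2.26 and 3.57 CPM in UHRF1-AID and at 24.1, 21.0 and 23.0 CPM in compound libraries, with a log2 fold change of 2.93 (SE 0.20, adjusted p = 0.000298). Its neighbour PAGE2 (chrX:55089008-55092842) stood at 2.24, 4.94 and 4.07 CPM and at 24.7, 27.3 and 26.1 CPM, with a log2 fold change of 2.78 (SE 0.25). In both genes every compound library lay far above every UHRF1-AID library, but they are near-identical copies and how reads shared between copies were counted is not stated. MAGEA8, a member of the melanoma antigen family, stood at 7.35, 10.6 and 9.17 CPM in UHRF1-AID and 30.1, 31.4 and 34.7 CPM in compound libraries (log2 fold change 1.81, SE 0.17). It was at 2.74, 3.29 and 3.31 CPM in DNMT1-AID cells at day 4 and at 0 in the 3 WT libraries, where it was at least 16.7-fold, at least 48.4-fold and at least 172-fold lower than in DNMT1-AID, UHRF1-AID and compound cells.

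The 23 higher X-linked members include further MAGEA, MAGEB, PAGE, SSX, GAGE and CT45 genes with log2 fold changes between 1.02 for MAGEB17 and 3.52 for TKTL1, a transketolase-like enzyme. TKTL1 stood at 15.2 ± 10.2 CPM (SD, n = 3) in UHRF1-AID and 175 ± 36.8 CPM in compound cells. TEX11, a meiosis gene, stood at 0.631 ± 0.218 and 5.21 ± 1.76 CPM (SD, n = 3). CT45A1 was at 2.37 ± 1.42 and 15.5 ± 2.6 CPM, and SSX3 at 0.700 ± 0.491 and 6.53 ± 1.00 CPM. Of the 23, 19 were silent in WT, that is at 3 counts or fewer in each of the 6 WT libraries. Without compound replicate 3, 15 members were higher. Summed over the 122 members, the level was 832, 1427 and 1043 CPM in UHRF1-AID libraries and 1420.4, 2019.7 and 2075 CPM in compound libraries, so the sums of the groups overlapped by a narrow margin, although each of the 23 called members did not overlap.

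Autosomal germline genes moved the same way. Of 64 members 30 were tested and 16 (53.3%) were higher, against 4.2% of all genes tested. Their log2 fold changes lay between 1.04 and 3.99, and none was lower (DESeq2 also 0, with 20 at an unadjusted p under 0.05 in either direction). Here too, a member too low in UHRF1-AID cells to pass the filter there could be tested only if it was higher in the compound line. TDRD9, HENMT1, STK31 and SYCP3 were among the members this low, and their direction was set by the filter. DAZL (chr3:16586792-16670306, ENSG00000092345) stood at 0.620, 0.894 and 0.813 CPM in UHRF1-AID and at 7.53, 12.8 and 17.3 CPM in compound libraries, a log2 fold change of 3.99 (SE 0.35, adjusted p = 0.000851). It was at 0 in the WT day 4 libraries and in all 6 day 0 libraries of the UHRF1-AID and compound lines. TEX101, a surface protein of germ cells, stood at 1.10, 1.10 and 1.17 CPM and at 6.46, 5.49 and 6.25 CPM (log2 fold change 2.41, SE 0.24). Several of the 16 act in the piRNA pathway, which silences transposons in germ cells, among them PIWIL2 (1.45 ± 0.471 against 5.31 ± 2.15 CPM, SD, n = 3), MAEL (3.65 ± 2.18 against 21.8 ± 2.00 CPM), TDRD1, TDRD9, TDRD12 and HENMT1. SYCP3, a component of the synaptonemal complex of meiosis, was at 0.273 ± 0.0949 and 2.78 ± 0.719 CPM, and CTCFL, the germline paralogue of CTCF, at 5.05 ± 0.864 and 10.5 ± 0.528 CPM. The sum over all 64 members was 206, 294 and 244 CPM in UHRF1-AID and 384, 397 and 392 CPM in compound libraries, and here the groups did not overlap.

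**Figure D2:**
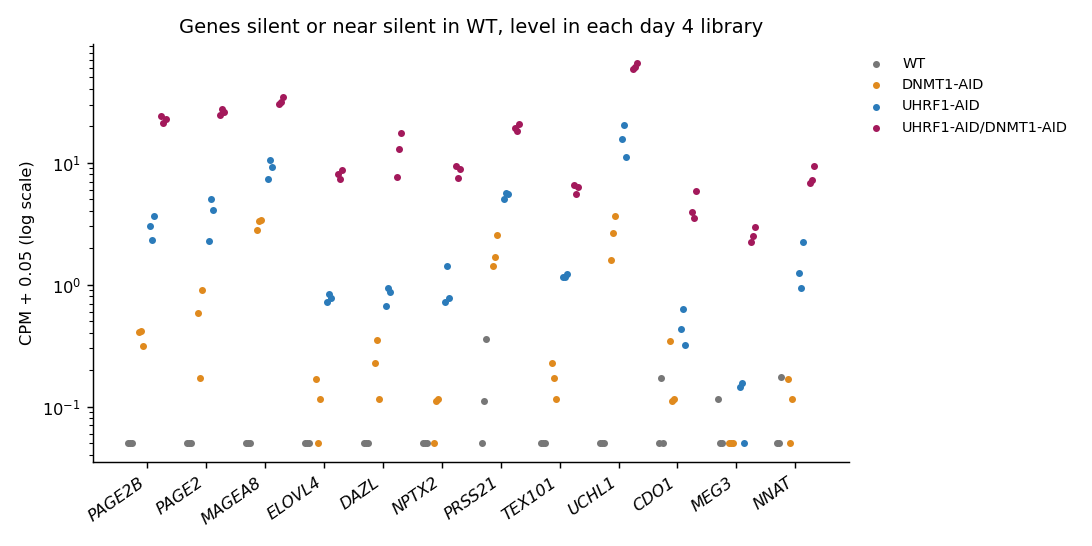
Level of 12 genes in each day 4 library, CPM plus 0.05 on a log scale (y axis), with WT in grey, DNMT1-AID in orange, UHRF1-AID in blue and UHRF1-AID/DNMT1-AID in crimson. In each of the 12 genes the 3 crimson points lie above the 3 blue points, which lie above the orange points in all but MEG3, where DNMT1-AID is at 0 and 1 UHRF1-AID library is at 0, and CDO1, where 1 orange point lies above the lowest blue one.

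Genes often methylated at their promoter in colorectal cancer were higher where they were called. Of 55 members 27 were tested and 5 (18.5%) were higher, against 4.2% of all genes tested, and all 5 were silent in WT. UCHL1, a deubiquitinating enzyme of neurons, stood at 15.6, 20.3 and 11 CPM in UHRF1-AID and 58.6, 61.2 and 65.6 CPM in compound libraries (log2 fold change 1.97, SE 0.20, adjusted p = 0.00104). CDO1, a cysteine-degrading enzyme, stood at 0.382, 0.578 and 0.271 CPM and at 3.89, 3.49 and 5.82 CPM (log2 fold change 3.40, SE 0.38). The others were UNC5C, a netrin receptor (5.24 ± 0.656 against 17.5 ± 3.28 CPM, SD, n = 3), the transcription factor GATA5 (0.652 ± 0.177 against 3.10 ± 0.223 CPM) and the integrin subunit ITGA4 (0.0937 ± 0.0754 against 0.943 ± 0.0249 CPM). Most tested members of the list, 22 of 27, passed no threshold. ITGA4 and CDO1 were so low in UHRF1-AID cells that they could pass the filter on low counts only through compound libraries. The part of the filter in the share of 18.5% was not tested.

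Among 29 tested imprinted genes, of 46, 3 (10.3%) were higher, against 4.2% of all genes tested. MEG3, a maternally expressed noncoding RNA, stood at 0.0955, 0.105 and 0 CPM in UHRF1-AID and at 2.20, 2.45 and 2.94 CPM in compound libraries, which makes it at least 17.4-fold higher (floor of 3 counts per library). A gene this low in UHRF1-AID cells could be tested only if it was higher in the compound line. NNAT, a small membrane protein expressed from the paternal allele, stood at 1.19, 0.894 and 2.17 CPM and at 6.77, 7.10 and 9.37 CPM (log2 fold change 2.41, SE 0.32). FAM50B was at 3.17 ± 0.925 and 8.85 ± 1.02 CPM (SD, n = 3). Outside these lists, ELOVL4 (chr6:79914812-79947580, ENSG00000118402) stood at 0.668, 0.789 and 0.723 CPM in UHRF1-AID and at 7.97, 7.23 and 8.70 CPM in compound libraries (log2 fold change 3.43, SE 0.25, adjusted p = 0.000298). NPTX2, a secreted neuronal pentraxin, stood at 0.668, 1.37 and 0.723 CPM and at 9.41, 7.49 and 8.76 CPM (log2 fold change 3.21, SE 0.30). PRSS21, a serine protease of testis, stood at 5.01, 5.57 and 5.47 CPM and at 19.3, 18.2 and 20.7 CPM (log2 fold change 1.84, SE 0.16). None of the 3 had overlapping groups.

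RPL39L and RPL10L, ribosomal protein paralogues known from testis, were also higher. Both were at 3 counts or fewer in each UHRF1-AID library. Such genes could be tested only through their counts in the compound line, and all 25 of them that were tested were higher. Their direction was therefore set by the filter. RPL39L stood at 0.0477, 0.0526 and 0.0452 CPM in UHRF1-AID and at 2.51, 2.13 and 1.90 CPM in compound libraries, at least 15-fold higher. RPL10L was at 0 in all 3 UHRF1-AID libraries and at 1.63 ± 0.517 CPM (SD, n = 3) in the compound line, at least 11.2-fold higher. HLA-G, an MHC class I gene of the placenta and the 1 higher member of 22 in the MHC class I list, stood at 0.0955, 0.631 and 0.361 CPM and at 3.39, 2.39 and 2.02 CPM. HOXD9, the 1 higher of 26 HOX genes tested, stood at 0.382, 0.473 and 0.271 CPM and at 1.38, 1.55 and 1.78 CPM, and its adjusted p rose to 0.0559 and 0.0522 without compound replicate 2 or 3. The shares called higher, 4.55% of the MHC class I list and 3.85% of the HOX list, lie near the 4.2% of all genes tested. Neither list therefore stands out.

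Taking the higher genes as a whole, 218 of 609 (35.8%) were silent in WT, against 535 of the 14497 tested (3.69%). A silent gene enters the test only when it has counts in 1 of the lines, so the second share is not a background for the first. Over the 218 genes the median level at day 4 was 2.20 CPM in the compound line, 0.420 with UHRF1 alone lost, 0.0653 with DNMT1 alone lost and 0 in WT cells. UHRF1-AID was above DNMT1-AID in 208 of the 218, and in 137 DNMT1-AID was at 3 counts or fewer in each library. The compound level exceeded the sum of the UHRF1-AID and DNMT1-AID levels in all 218, but the genes had been selected for being higher in the compound line. Only 25 of the 609 were at 3 counts or fewer in each UHRF1-AID library, so nearly all of the higher genes had reads in UHRF1-AID cells already.

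A selection that does not use these libraries comes from DNMT1 loss with UHRF1 kept, DNMT1-AID against WT at day 4. In that comparison 311 of 13582 genes (2.29%) were higher and 38 (0.28%) lower, and both groups lie in the second alignment folder. Without WT replicate 3 the higher genes numbered 769, and the lower genes numbered 23 and 14 without WT replicates 1 and 2. WT replicates 1 and 2 were over 2-fold lower than replicate 3 in 118 of 273 genes (43.2%) higher in the compound line, at 1 CPM or more. Over all genes tested this was 2.40%. The part of this in the overlap given next was not tested. Of the 311, 308 were tested in the compound line against UHRF1-AID, where 53 (17.2%) were higher and 2 lower. Over all genes tested there, 4.2% were higher and the median log2 fold change was 0.00. Of the 308, 252 (81.8%) had a positive log2 fold change and the median was 0.46. Of the 261 that were not silent in WT, 40 (15.3%) were higher and 2 lower. Of the 47 that were silent in WT, 13 (27.7%) were higher and none lower, 41 had a log2 fold change over 0, and the median was 0.63. In these 47 genes the median level was 1.66 CPM in DNMT1-AID, 6.36 in UHRF1-AID and 10.5 in compound cells. The compound mean exceeded the sum of the means of the single lines in 29 of the 47, and every compound library exceeded every UHRF1-AID library in 24. CKM, the muscle creatine kinase, is 1 of them, at 0 in WT, 4.59, 3.78 and 4.69 CPM in DNMT1-AID, 11.4, 15.5 and 12.1 CPM in UHRF1-AID and 24.7, 31.4 and 34.7 CPM in compound libraries (log2 fold change against UHRF1-AID 1.21, SE 0.18). MAGEB1 was at 0 in WT, 3.39, 3.05 and 3.70 CPM in DNMT1-AID, 8.45, 10.4 and 9.49 CPM in UHRF1-AID and 17.2, 19.6 and 26.2 CPM in compound libraries (log2 fold change 1.14, SE 0.19), and it fell to 0.94, under the fold threshold, without compound replicate 3. Of the 38 lower genes, 34 were tested, 4 (11.8%) were lower and none higher in the compound line, with a median of -0.51.

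Few interferon-stimulated genes were called when DNMT1 loss was added to UHRF1 loss. With UHRF1 kept, DNMT1 loss left 31 of 57 tested interferon-stimulated genes higher and none lower, with a median log2 fold change of 1.23. Added to UHRF1 loss it left none of 59 higher and 2 lower, with a median of 0.06 (edgeR, 7 of 59 at an unadjusted p under 0.05, and DESeq2 also 0 higher and 2 lower). The summed level of the 62 members was 7425, 6589 and 7604 CPM in WT, 22972, 15836 and 19977 CPM in DNMT1-AID, 12363, 24617 and 19129.6 CPM in UHRF1-AID and 28173, 25878 and 14512 CPM in compound libraries at day 4. The 3 depleted lines overlap and lie above WT, and WT itself lay above its day 0 sum of 1423 ± 33.8 CPM (SD, n = 3). The 2 lower members were GBP2, a guanylate-binding protein, and SAMD9, an antiviral factor. GBP2 stood at 11.9, 8.36 and 12.4 CPM in UHRF1-AID and 3.76, 4.45 and 3.37 CPM in compound libraries (log2 fold change -1.52, SE 0.22, adjusted p = 0.00386). SAMD9 stood at 112, 117 and 179.8 CPM and at 76.6, 81.5 and 44.2 CPM (log2 fold change -1.03, SE 0.27, adjusted p = 0.0359), and its adjusted p passed 0.05 when any 1 of the 6 libraries was left out, lying between 0.0644 and 0.0981.

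The difference of the 2 DNMT1 effects was itself tested in a fit of the 12 day 4 libraries, with 14838 genes, of which 40 (0.27%) were higher and 225 (1.52%) lower, meaning a less positive or more negative DNMT1 effect where UHRF1 was also lost. Among 59 interferon-stimulated genes 14 were lower and none higher (37 at an unadjusted p under 0.05), with a median difference of -1.28. Nucleic acid sensing genes had 3 lower of 23 with a median of -0.55, where DNMT1 loss alone had left 9 of 23 higher. Within the nucleic acid sensing list the added DNMT1 loss itself left APOBEC3G (4.2, 9.30 and 7.73 against 22.1, 24.1 and 11.6 CPM) and APOBEC3H (0.716, 1.05 and 0.859 against 1.76, 2.32 and 2.39 CPM) higher, both cytidine deaminases that restrict retroelements. Their log2 fold changes were 1.43 (SE 0.34) and 1.28 (SE 0.33), and their calls were each lost in 4 or more of the fits without 1 library, where the edgeR adjusted p passed 0.05 and the fold stayed over the threshold. Of 22 MHC class I genes 1 was lower in the difference, with a median of -0.74, and of 24 chemokine and TNF family genes tested in the comparison itself CD70, a ligand of T cells, was the 1 called (0.573, 1.58 and 0.949 against 4.83, 2.07 and 3.31 CPM). CD70 was also higher at day 0, with a log2 fold change of 1.54 (edgeR adjusted p = 0.0447), and its day 4 call was lost in 4 of the fits without 1 library. In the same fit 10 of 41 X-linked cancer/testis genes were lower and 1 higher, and 3 of 32 autosomal germline genes were lower. Most called members of these lists are silent in WT, where the fitted difference depends on the offset added to 0, so no difference is given for single genes. The lists were not compared with each other by a test. The UHRF1-AID libraries are the only ones of the 12 in the first folder, and their part in the difference was not tested.

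Of the genes tested, 9 of 13 mitochondrially encoded, 7 of 84 ribosomal protein and 6 of 19 histone genes were higher in the compound line (edgeR). Over all genes tested 4.2% were higher. All 13 mitochondrially encoded protein genes had a log2 fold change over 0, 9 were called, and the median was 1.19. MT-ND1, a subunit of complex I, stood at 388, 286 and 338 CPM in UHRF1-AID and 884, 969 and 1018 CPM in compound libraries (log2 fold change 1.49, SE 0.13, adjusted p = 0.000851). MT-CO2, a subunit of cytochrome oxidase, stood at 3482, 3235 and 3061 CPM and at 6936, 7699 and 6513 CPM (log2 fold change 1.10, SE 0.12). The summed level of the 13 was 26055 ± 1284 CPM (SD, n = 3) in WT, 37104 ± 1240.4 in DNMT1-AID, 18756 ± 1913 in UHRF1-AID and 39818 ± 2395 in compound cells at day 4, so UHRF1-AID was the lowest of the 4 and the compound and DNMT1-AID means lay close together. The day 0 means were 15848 in WT, 16498 in DNMT1-AID, 20400 in UHRF1-AID and 19923 CPM in compound cells. Each group of the first alignment folder, UHRF1-AID day 4 included, thus lay below each group of the second. Line and folder cannot be told apart in this difference. With UHRF1 kept, DNMT1 loss left 1 of the 13 higher with a median of 0.60.

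Of 84 ribosomal protein genes tested, 80 had a positive log2 fold change (median 0.64) and 7 were called. The 7 include RPL39L and RPL10L, whose direction was set by the filter. DNMT1 loss with UHRF1 kept called 0 of 80 (median 0.08, 26 at an unadjusted p under 0.05). RPS21, of the small subunit, stood at 505, 571 and 494 CPM in UHRF1-AID and 1185, 1428 and 1111 CPM in compound libraries (log2 fold change 1.23, SE 0.13). RPS28 stood at 594, 549 and 603 CPM and at 1059.9, 1269 and 1207 CPM (log2 fold change 1.00, SE 0.11). WT cells at day 4 had RPS28 at 1118, 1022 and 1109 CPM and DNMT1-AID cells at 959, 1054 and 1088 CPM, so the UHRF1-AID libraries were the ones that stood apart. The summed level of the 86 members was likewise 136620.0 ± 12190.2 CPM (SD, n = 3) in WT, 134774 ± 13281 in DNMT1-AID and 136263 ± 11675 in compound cells, and 90538 ± 5280.2 in UHRF1-AID cells. Without compound replicate 2, 3 of the 84 were called, and RPS28 fell under the fold threshold without UHRF1-AID replicate 2 (0.94) or compound replicate 2 (0.94) or 3 (0.98).

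Of 65 replication-dependent histone genes, whose transcripts mostly lack poly(A) tails, 19 were tested, all 19 had a log2 fold change over 0 and 6 were called. The 6 include H4C8, at 3 counts or fewer in each UHRF1-AID library, whose direction was set by the filter. H2AC25 stood at 63.7, 95.1 and 81.9 CPM in UHRF1-AID and 194, 184 and 163 CPM in compound libraries (log2 fold change 1.15, SE 0.15), and at 64.0, 50.4 and 64.8 CPM in WT. H2BC12 stood at 37.5, 47.7 and 56.7 CPM and at 97.8, 93.4 and 109 CPM (log2 fold change 1.07, SE 0.15). The list sum was 606 ± 13.4 CPM (SD, n = 3) in compound, 291 ± 63.7 in UHRF1-AID, 275 ± 49.7 in DNMT1-AID and 199.7 ± 21.1 CPM in WT cells at day 4. The count of 6 fell to 2 without UHRF1-AID replicate 1 or compound replicate 2 or 3, and to 3 without compound replicate 1.

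Gene length and GC content moved with the comparison. Across genes, the log2 fold change had a Spearman correlation of -0.316 with gene length (14497 genes) and 0.20 with GC content (14455 genes), as a description over genes that share the same 6 libraries. The deviation of each library from the mean of the 6 had a correlation with length of 0.355, -0.105 and 0.317 in the UHRF1-AID libraries and of -0.231, -0.253 and -0.239 in the compound libraries. After a loess correction for both properties in each library, chosen after seeing the data, 526 genes were higher and 92 lower, of which 457 and 62 had been called without it. The correction kept 183 of the 218 higher genes silent in WT and 274 of the other 391. X-linked cancer/testis genes had 20 called members and autosomal germline genes 16 after it. Histone genes went from 6 to 1 and mitochondrial genes from 9 to 5. RPS21 (log2 fold change 0.84), MT-CO2 (0.70), H2AC25 (0.78), H2BC12 (0.45) and CKM (0.88) then fell under the fold threshold. In all, 19 of the 56 named genes called lost the call. They include the higher genes MAGEB1, RPS28, KRT20, BAMBI, ASCL2 and TMA7. The lower genes ALCAM, MINDY2, HOOK1, KIF11, CASP8AP2, MPHOSPH10, SAMD9 and SLC7A11 are also among them.

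**Figure D3:**
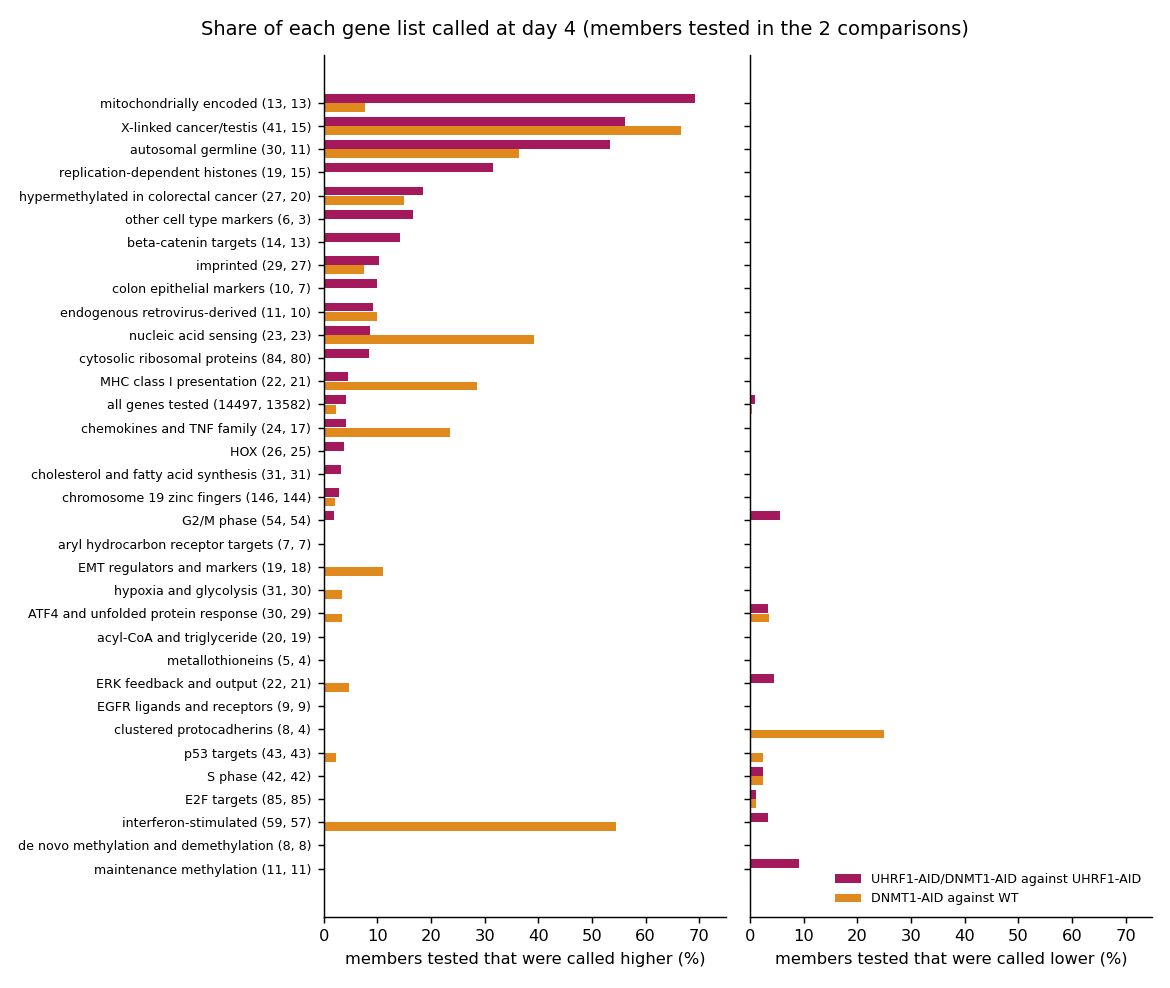
Share of the tested members of each gene list called higher (left) or lower (right), in percent (x axes), for the compound line against UHRF1-AID (crimson) and DNMT1-AID against WT (orange) at day 4, with the numbers tested in brackets. Mitochondrial, cancer/testis and germline lists lead the crimson bars, and the interferon-stimulated bar is orange only on the left. A member too low in the control line to pass the filter there could be tested only if it was higher. This touches the germline and cancer/testis bars, among others.

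Several genes of general regulation and metabolism were also higher, with no silence in WT. KMT2D, a histone H3K4 methyltransferase, stood at 6.16, 3.10 and 7.09 CPM in UHRF1-AID and 24.1, 28.2 and 28.6 CPM in compound libraries (log2 fold change 2.28, SE 0.26, adjusted p = 0.00136). CREBBP, a histone acetyltransferase, stood at 10.3, 7.99 and 13.6 CPM and at 33.6, 37.0 and 40.5 CPM (log2 fold change 1.78, SE 0.20). FASN, the fatty acid synthase and the 1 called of 31 genes of cholesterol and fatty acid synthesis, stood at 194, 105 and 276 CPM and at 579, 579 and 747 CPM (log2 fold change 1.71, SE 0.33), and its call was lost without UHRF1-AID replicate 1 or compound replicate 1 or 2, with adjusted p between 0.05003 and 0.106. PCNX3, a membrane protein, stood at 17.1, 15.8 and 19.6 CPM and at 42.1, 39.3 and 39.0 CPM (log2 fold change 1.18, SE 0.13). Of 146 zinc finger genes of chromosome 19 tested, 4 (2.74%) were higher, a share below the 4.2% of all genes, and they include ZNF865 (5.25, 2.31 and 5.51 against 15.5, 13.3 and 17.6 CPM) and ZNF628 (3.29, 1.84 and 3.80 against 8.47, 8.78 and 9.12 CPM). In each of the 6 genes the compound libraries lay above the UHRF1-AID libraries.

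The same genes differed between libraries of 1 group elsewhere in the series. WT cells at day 4 had KMT2D at 6.62, 5.70 and 22.0 CPM and CREBBP at 9.84, 5.16 and 28.9 CPM, and UHRF1-AID cells at day 0 had KMT2D at 29.5, 36.2 and 33.2 CPM. Of the higher genes at 1 CPM or more, 156 of 274 (56.9%) were over 2-fold lower in WT day 0 replicate 3 than in replicates 1 and 2, against 797 of 12562 genes tested (6.34%). The share was 158 of 272 (58.1%, against 5.71% of all) for DNMT1-AID day 0 replicates 1 and 2 against replicate 3, and 118 of 273 (43.2%, against 2.40%) for WT day 4 replicates 1 and 2 against replicate 3. The libraries of each of these groups have the same line and day in their labels. The part of whatever separates them in the comparison of the compound line with UHRF1-AID was not tested, and these libraries were picked after their values were seen.

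**Figure D4:**
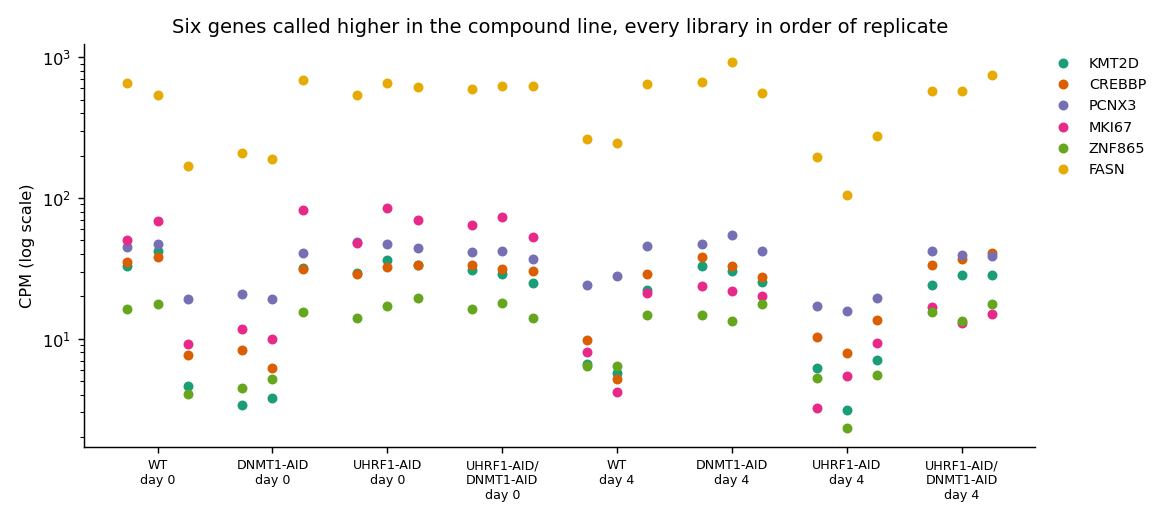
Level in CPM on a log scale (y axis) of KMT2D, CREBBP, PCNX3, MKI67, ZNF865 and FASN in all 24 libraries, in order of replicate within each group (x axis). WT day 0 replicate 3, DNMT1-AID day 0 replicates 1 and 2, WT day 4 replicates 1 and 2 and the 3 UHRF1-AID day 4 libraries are low, and the compound libraries at day 4 are at the level of most day 0 libraries except in MKI67.

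The 135 lower genes were moderate in size of change and mostly expressed in every line. Their median level was 10.8 CPM in UHRF1-AID, 4.91 in compound, 7.24 in DNMT1-AID and 7.73 in WT cells at day 4. CHD4, the ATPase of the NuRD remodelling complex, stood at 22.5, 21.6 and 34.7 CPM in UHRF1-AID and 10.5, 11.4 and 12.2 CPM in compound libraries (log2 fold change -1.23, SE 0.20, adjusted p = 0.00566), and without UHRF1-AID replicate 3 its log2 fold change was -0.99, inside the threshold. It was at 5.14, 6.61 and 12 CPM in WT and 12.9, 10.4 and 12 CPM in DNMT1-AID cells, so here too UHRF1-AID was the line that stood apart. ADGRA3, an adhesion receptor, stood at 58.1, 34.6 and 46.9 CPM and at 15.8, 20.7 and 23.6 CPM (log2 fold change -1.23, SE 0.21), with 29.0, 28.8 and 30.2 CPM in DNMT1-AID and 44.2, 58.7 and 45.2 CPM in WT. LARP7, a protein of the 7SK particle that holds back transcription elongation, stood at 24.5, 20.0 and 30.2 CPM and at 10.5, 13.4 and 10.2 CPM (log2 fold change -1.15, SE 0.19). CCDC112 stood at 19.2, 11.5 and 13.4 CPM and at 5.52, 7.04 and 5.21 CPM (log2 fold change -1.33, SE 0.23). MINDY2, a deubiquitinating enzyme, stood at 64.6, 39.8 and 54.9 CPM and at 24.7, 25 and 25.9 CPM (log2 fold change -1.09, SE 0.17). Groups did not overlap in any of the 5.

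Of the remaining lower genes named by rank, ALCAM, an adhesion molecule, had a log2 fold change of -1.09 (SE 0.15) and HOOK1, a cargo adaptor of microtubules, one of -1.01 (SE 0.16). Without UHRF1-AID replicate 1 they were -0.95 and -0.98, and MINDY2 was -0.94, all inside the fold threshold, and HOOK1 also lost its call without UHRF1-AID replicate 3 or compound replicate 2 or 3. Lower genes were long and poor in GC, with a median length of 7035 bases and 41.7% GC, against 3457 bases and 56.8% for the higher genes and 4712 bases and 48.7% for all genes tested. Of the 135, 54 (40.0%) were also lower in WT cells between day 0 and day 4, against 5.50% of all genes tested here. That comparison shares no library with the present one, and in it 730 of 13601 genes (5.37%) were higher and 888 (6.53%) lower. It also crosses the 2 alignment folders. Of the 609 higher genes, 21 were higher and 10 lower in WT by day. Of 130 lower genes tested in DNMT1-AID against WT, 4 were lower and 2 higher.

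Proliferation genes showed few calls and a small lean below 0. The log2 fold change was over 0 in 18 of 54 G2/M genes (median -0.17), 30 of 85 E2F targets (-0.19) and 15 of 42 S phase genes (-0.20). At an unadjusted p under 0.05 (edgeR, either direction) were 21, 23 and 14 of them. Of 54 G2/M genes 1 was higher and 3 lower, of 85 E2F targets 1 was lower (DNMT1 itself), and of 42 S phase genes 1 was lower. MKI67, a marker of cycling cells, was the higher one at 3.25, 5.47 and 9.40 CPM in UHRF1-AID and 16.7, 13.0 and 14.9 CPM in compound libraries (log2 fold change 1.28, SE 0.33, adjusted p = 0.0297), a call lost without UHRF1-AID replicate 1 or 2 or any 1 compound library. The mitotic kinesins KIF11 (19.2, 24.7 and 33.7 against 14.4, 10.7 and 13.2 CPM) and KIF20B (10.1, 7.04 and 14.5 against 4.26, 4.84 and 2.82 CPM) were lower, with log2 fold changes of -1.04 (SE 0.21) and -1.43 (SE 0.30), as was the condensin subunit SMC4 (22.2 ± 9.83 against 8.85 ± 1.07 CPM, SD, n = 3). The calls of both kinesins were lost without UHRF1-AID replicate 3 or compound replicate 2 or 3. CASP8AP2, an S phase gene needed for histone transcription, stood at 9.02, 6.99 and 13.1 CPM and at 4.83, 4.58 and 3.67 CPM (log2 fold change -1.18, SE 0.26), and was lost without UHRF1-AID replicate 3 or any 1 compound library. CDKN1A, the p53 target that halts the cycle, stood at 399.8, 544 and 426 CPM and at 411, 415 and 415 CPM (log2 fold change -0.16, SE 0.13, adjusted p = 0.415). None of 43 p53 targets was called by edgeR or DESeq2, with 19 at an unadjusted p under 0.05.

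Other enzymes of DNA methylation were not called. DNMT3A stood at 7.64, 4.47 and 9.08 CPM in UHRF1-AID and 6.77, 6.0 and 7.72 CPM in compound libraries (log2 fold change -0.07, SE 0.26, adjusted p = 0.885). DNMT3B stood at 7.83, 9.15 and 9.04 CPM and at 6.96, 7.29 and 7.53 CPM, with a log2 fold change of -0.27 (SE 0.18, adjusted p = 0.310). TET2, a dioxygenase that oxidises methylcytosine, stood at 5.39, 5.05 and 7.37 CPM and at 4.26, 4.2 and 4.35 CPM, with a log2 fold change of -0.49 (SE 0.22, adjusted p = 0.148). The DNMT3B and TET2 libraries did not overlap, and this was so for 17.7% of all genes in the lower direction. Of 8 genes of de novo methylation and demethylation tested 3 had an unadjusted p under 0.05, and edgeR and DESeq2 called 0 in either direction. Of 11 maintenance genes DNMT1 was the 1 called.

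The other lists held 2 called genes or fewer. The beta-catenin targets ASCL2 (0.0477, 0.421 and 0.0904 against 1.82, 0.645 and 0.735 CPM) and BAMBI (11.2, 23.1 and 13.3 against 39.4, 24.5 and 34.4 CPM) were higher, 2 of 14 tested, and each was lost in all but 1 of the 6 fits without 1 library. KRT20, a keratin of mature colon epithelium, was higher at 22.2, 21.2 and 23.7 CPM against 8.69, 11.6 and 11.8 CPM (log2 fold change 1.05, SE 0.17), 1 of 10 colon markers tested. COL1A1, a collagen of fibroblasts, was the 1 higher of 6 markers of other cell types tested, at 17.7, 15.4 and 19.8 CPM against 8.78, 3.68 and 10.3 CPM (log2 fold change 1.19, SE 0.32). RTL5, a gene derived from a retrotransposon, was the 1 higher of 11 (log2 fold change 1.01, SE 0.23). FOS, an immediate early gene and the 1 lower of 22 ERK genes, stood at 145, 108 and 193 CPM and at 85.1, 70.7 and 59.8 CPM (log2 fold change -1.07, SE 0.21), and SLC7A11, the cystine transporter and the 1 lower of 30 ATF4 genes, at 41.1, 17.2 and 22.4 CPM and at 12.5, 14.0 and 11.6 CPM (log2 fold change -1.10, SE 0.29). COL1A1, RTL5, FOS and SLC7A11 each lost their call in 4 or more of the fits without 1 library, and KRT20 in 2. Hypoxia and glycolysis (31 tested, 12 at an unadjusted p under 0.05), triglyceride synthesis (20, 8), EMT (19, 4), EGFR ligands and receptors (9, 3), protocadherins (8, 2), aryl hydrocarbon receptor targets (7, 0) and metallothioneins (5, 2) had 0 calls in edgeR, and DESeq2 called 1 protocadherin gene higher.

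Before auxin few genes were called between the lines. At day 0, with all 6 libraries in 1 folder, 32 of 14217 genes (0.225%) were higher and 18 (0.127%) lower in the compound line. The lines were not equal at that day. The paper reports that untreated compound cells had less DNA methylation than WT and more deregulated genes against WT than the single degron lines. It also reports that degradation in the compound line was rapid but incomplete in the first hours of auxin. The part of either in the day 4 difference was not tested. Of the 609 genes higher at day 4, 319 were tested at day 0, 3 were higher and 1 lower, and their median log2 fold change was 0.03. Of the 135 lower genes 130 were tested at day 0, where 3 were lower and 1 higher and the median was -0.27. Ribosomal protein genes already lay above 0 at day 0, 79 of 81 tested with a median log2 fold change of 0.22, as did 14 of 16 histone genes with a median of 0.44, against medians of 0.64 and 0.89 at day 4. None of either list was called at day 0 by edgeR, with 66 and 6 at an unadjusted p under 0.05. The day 0 counts lay between 0 and 133 higher and 0 and 105 lower with 1 library left out, the most without UHRF1-AID replicate 2. PUDP (chrX:7048920-7148190), a pseudouridine phosphatase, was at 0 in all 6 compound libraries and at 0 at day 0 and 0.315 CPM at day 4 in UHRF1-AID replicate 2, and between 23.7 and 30.7 CPM in the other 4 UHRF1-AID libraries, so that replicate differs from the rest of its group. PUDP did not pass the filter on low counts in the day 4 comparison.

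The change from day 0 to day 4 was compared between the 2 lines in a fit of 12 libraries. Of 15349 genes 220 (1.43%) had a more positive and 81 (0.528%) a more negative day effect in the compound line, and this comparison shares the 6 day 4 libraries with the one above. With 1 library left out the counts lay between 91 and 276 and between 31 and 201. KMT2D had a difference of day effects of 2.50 (log2, SE 0.28), CREBBP of 1.77 (SE 0.21) and PCNX3 of 1.39 (SE 0.15), all with an adjusted p of 0.00134. UHRF1-AID cells had CREBBP at 28.8, 32.6 and 33.2 CPM at day 0 and at the lower day 4 values given above, while compound cells stood at 33.2, 31.3 and 30.4 CPM at day 0 and near there at day 4. In the other direction CHD4 had a difference of -1.61 (SE 0.24), GBP2 of -2.70 (SE 0.44) and MPHOSPH10, a nucleolar protein of ribosome assembly, of -1.39 (SE 0.23). Of the 13 mitochondrial genes 10 had a more positive day effect, with a median difference of 1.28. Genes at 0 in both lines at day 0, such as DAZL, PAGE2B, ELOVL4 and NPTX2, give this fit no usable error, and no difference of day effects is given for them.

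By position, the X chromosome held 59 of the higher genes, 11.5% of its 512 genes tested, and chromosome 19 held 84, 8.17% of its 1028, against 4.2% of all genes tested. Of the 59 on the X chromosome 23 are the listed cancer/testis genes. The mitochondrial genome had 13 of its 20 tested genes higher. Lower genes were 5 on the X chromosome (0.977%) and 3 on chromosome 19 (0.292%), against 0.931% of all. By type, 504 of the higher genes were protein-coding, 61 were long noncoding RNAs and 36 pseudogenes, while 131 of the 135 lower genes were protein-coding.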

How the data were processed

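RNA-seq of HCT116 degron lines was measured in 24 libraries, 3 in each of 8 groups. The authors sequenced poly(A) RNA in pairs, used Trimmomatic for trimming and STAR for alignment to hg38, and deposited whole-number featureCounts counts per Ensembl gene. The strand setting and the treatment of reads shared between genes are not given in the sources used here. The 92 ERCC rows were kept out of library sizes and tests. Groups follow the sample titles.

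From the counts, TMM-scaled CPM was computed over all 24 libraries, and each comparison was fitted with edgeR 4.0.16 in R 4.3.3 (filterByExpr, robust quasi-likelihood test, Benjamini-Hochberg adjustment over all genes tested). Calls needed a log2 fold change beyond 1 in either direction and an adjusted p below 0.05. Positive values are higher in the compound line. A gene was silent in WT at 3 counts or fewer in each WT library, and a fold against such a group was taken against 3 counts per library. DESeq2 1.42.0, other scaling and filters, a replicate block and fits without 1 library were alternatives. The scripts were tested on simulated data. Totals between 15936193 and 19991383 counts put the floor of 3 counts, which covers counting error only, at 0.145 to 0.189 CPM in the 6 libraries.

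Named genes are the methylation enzymes, the 8 genes of smallest p in each direction, up to 2 called members of each of 33 lists in each direction, the 3 leading genes of each tested difference, CDKN1A, MKI67 and PUDP. Further list members are given as examples, and they and the libraries that stand apart were chosen after their values were seen. The comparison and the lists were chosen with earlier results of these data known.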

Additional observations from a re-analysis of the deposited data

Results flagged for a closer look

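Some named genes differed in their effect between contrasts that share an agent, by a test of the difference itself (edgeR, log2 difference beyond 1 in either direction and adjusted p below 0.05). The effect of DNMT1 loss on top of UHRF1 loss was more positive than the effect with UHRF1 kept by 1.32 for ATP6V0C, a subunit of the proton pump of lysosomes, 1.07 for RPS28 and 1.40 for TMA7, on the log2 scale. It was less positive, or more negative, by a log2 difference of -2.20 for GBP2, -2.17 for SAMD9, -1.78 for CHD4, -1.42 for CASP8AP2 and -1.07 for MINDY2. The UHRF1-AID libraries, which stand in another alignment folder than the rest of this fit, enter each of these values.

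The log2 change from day 0 to day 4 was more positive, or less negative, in the compound line than in UHRF1-AID cells by 2.50 for KMT2D, 1.87 for ZNF865, 1.77 for CREBBP, 1.68 for FASN, 1.53 for ZNF628, 1.44 for COL1A1, 1.39 for PCNX3, 1.38 for ATP6V0C, 1.37 for MT-ND1, 1.14 for MT-CO2 and 1.03 for TMA7. It was less positive, or more negative, with differences of -2.70 for GBP2, -1.61 for CHD4, -1.43 for KIF20B, -1.39 for MPHOSPH10, -1.22 for CCDC112, -1.21 for CASP8AP2, -1.17 for LARP7 and -1.10 for ADGRA3. Day 4 libraries of the compound line changed folder relative to day 0 and those of UHRF1-AID did not, so folder and line cannot be told apart here.

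Counts on the ERCC spike-in sequences, which no comparison uses, made up 1.65%, 1.51% and 1.48% of the compound day 4 libraries and 0 of the UHRF1-AID day 4 libraries.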

How the results depend on the processing

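No called gene changed sign under any alternative that tested it, and the signs of genes that were not called were not tallied. Of the 56 named genes called, 22 were called under every alternative that gave a value and 34 lost the call under at least 1, and DESeq2 and RLE scaling called all 56. The joint correction for length and GC and the day effect fit with a replicate block within each line were chosen after seeing the data. With no minimum fold 1395 genes were higher and 1182 lower, and at an adjusted p under 0.01 the counts were 240 and 21. DESeq2 gave 635 and 161. The replicate block gave 550 and 103, and replicate numbers did not pair the day 4 libraries, with correlations of deviations of -0.114, 0.046 and 0.017. Without 1 library the counts lay between 239 and 774 higher and between 18 and 376 lower, as given by library in the report.

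At day 0 the counts were 121 higher and 74 lower with no filter on low counts, 61 and 47 by DESeq2, and 40 lower with the replicate block, and without 1 library they lay between 0 and 133 and between 0 and 105. Without UHRF1-AID replicates 1, 2 and 3 they were 5 and 3, 133 and 105, and 1 and 0, and without compound replicates 2 and 3 they were 10 and 3, and 0 and 1. The day effect difference had 157 lower genes with no filter, and between 91 and 276 higher and between 31 and 201 lower without 1 library, lowest without compound day 4 replicate 2 and highest without UHRF1-AID day 4 replicate 2. Its higher genes numbered 102 to 142 without any 1 compound day 0 library, UHRF1-AID day 0 replicate 1 or 3 or compound day 4 replicate 1 or 3. The UHRF1-AID numbers paired day 0 with day 4 (correlations 0.228, 0.143 and 0.122) and those of the compound line did not pass 0.1 (0.0789, 0.0911 and 0.0915), and a replicate block within lines gave 203 and 80. DNMT1 loss with UHRF1 kept gave 492 and 69 with no filter, and between 208 and 769 and between 14 and 53 without 1 library, lowest without WT replicate 2 and highest without WT replicate 3. The difference of the 2 DNMT1 effects gave 93 and 428 with no filter, 77 and 350 by DESeq2, and between 22 and 134 and between 112 and 526 without 1 library, lowest without WT replicate 1 and highest without UHRF1-AID replicate 2, with 149 lower without UHRF1-AID replicate 3, 127 lower without compound replicate 2 and 24 or 25 higher without DNMT1-AID replicate 1 or compound replicate 2 or 3. The cause of these shifts was not tested. Levels under the floor of 3 counts, 0.145 to 0.189 CPM in the 6 libraries, could not be compared.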
